A study of Mus musculus with 9 samples.

Results

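In mesenchymal progenitor cells that had lost ATRX, 4802 regions of open chromatin were detected in the knockout clone B10 and in neither the other knockout clone, G7, nor the wild-type (WT) cells. ATAC-seq uses a transposase that inserts into accessible DNA, and stretches with an excess of inserted fragments are called as peaks. Peaks of all 9 libraries on chromosomes 1 to 19 were merged where they overlapped or touched, which gave 132893 merged regions. Of these, 95142 were consensus regions, with a peak in at least 2 of 3 libraries of any line. A region was taken as open in B10 alone when at least 2 of 3 B10 libraries and 0 of the 6 other libraries held a peak in it. The peaks themselves chose these regions, so their absence from G7 and WT is the rule and not a result.

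The study asked what happens to accessible chromatin when ATRX is lost in C3H/10T1/2 (CCL-226) cells, an established mouse line of mesenchymal progenitors. The line had been edited with CRISPR-Cas9 and 2 guides against *Atrx*, and 1 clone per guide was kept, so B10 and G7 are each a single *Atrx* knockout clone and which guide made which clone is not given in the sources used here. WT stands for the isogenic control with intact *Atrx*, made with the Cas9 vector but no guide, so that all 3 lines had received Cas9. Each line had 3 libraries, with no treatment named in the labels, and nothing says that libraries of a line came from separate cultures, so a spread between libraries may be technical.

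ATRX is a chromatin remodeller that works with the histone chaperone DAXX to place the histone variant H3.3 in heterochromatin, at telomeres and at other repeats. Heterochromatin marked by H3K9me3 tends to cover long domains with few genes, which stay closed in most cell types. Several very long genes of the nervous system, such as those for contactins and many cadherins, lie in such domains.

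The lists held 74643 to 86650 peaks per library on chromosomes 1 to 19, most in the B10 libraries (86650, 85612 and 79489). They hold no read counts, so the sequencing depth is unknown and the absence of a peak means that none was detected. A peak lay within 1 kb of 12 of the 14 annotated *Atrx* transcript starts in every library, which does not check the edit, since a small edit leaves a promoter peak in place. Promoters of 9 of 10 mesenchymal marker genes (*Prrx1*, *Twist1*, *Twist2*, *Pdgfra*, *Pdgfrb*, *Col1a1*, *Col1a2*, *Col3a1* and *Vim*) held a peak in all 9 libraries, and the *Thy1* promoter held none. Of the markers of other cell types, *Ptprc*, *Cd3e*, *Epcam*, *Cdh1* and *Krt18* held no promoter peak in any library, while *Pecam1*, *Tek* and *Rbfox3* held one in all 9. *Spi1* and *Snap25* held one in 5 libraries each, *Syt1* in the 3 WT libraries, and *Cdh5*, a cadherin of endothelium, in B10 replicates 1 and 2.

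The sequences of 6 regions open in B10 alone are shown because they carry strong peaks of the set outside promoters and exons, or lie in one of its longest runs of neighbours. They were picked with their values known from 10 such windows that were read. The 201 bases around the summit of the best B10 peak were read from the plus strand of GRCm38, the assembly that mm10 names, as given by RefSeq. The first lies at chr2:98375547-98375747, between genes, with *Gm10801* as the nearest coding gene. The second, at chr1:111058376-111058576, lies between genes near *Cdh19*, a cadherin of Schwann cell precursors. The third, at chr15:17801497-17801697, lies between genes over 1 Mb from the start of *Cdh10*, a cadherin of neurons. The fourth, at chr1:77410190-77410390, lies in an intron of *Epha4*, a receptor of ephrins. The fifth, at chr10:49646269-49646469, lies in an intron of *Grik2*, a kainate-type glutamate receptor, and is the one of the 6 outside a run. The last, at chr3:99778639-99778839, lies between genes near *Spag17*, a gene of the sperm flagellum. Capitals mark exact matches to one of 12 short motifs that were searched on either strand and are spelled out with the motif shares.
Nearest start Gm10801: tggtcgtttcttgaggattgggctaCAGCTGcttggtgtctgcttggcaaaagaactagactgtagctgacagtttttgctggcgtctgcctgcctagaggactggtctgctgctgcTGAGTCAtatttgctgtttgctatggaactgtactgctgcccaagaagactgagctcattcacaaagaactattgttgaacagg
Nearest start Cdh19: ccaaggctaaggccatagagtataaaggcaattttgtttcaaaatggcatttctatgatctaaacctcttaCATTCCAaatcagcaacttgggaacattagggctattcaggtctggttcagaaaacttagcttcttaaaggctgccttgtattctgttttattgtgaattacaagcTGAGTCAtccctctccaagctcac
Nearest start Cdh10: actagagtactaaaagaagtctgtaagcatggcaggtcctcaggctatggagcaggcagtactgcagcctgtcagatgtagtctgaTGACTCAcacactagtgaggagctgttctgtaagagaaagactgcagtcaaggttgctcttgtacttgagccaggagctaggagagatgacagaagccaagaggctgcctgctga
Epha4 intron: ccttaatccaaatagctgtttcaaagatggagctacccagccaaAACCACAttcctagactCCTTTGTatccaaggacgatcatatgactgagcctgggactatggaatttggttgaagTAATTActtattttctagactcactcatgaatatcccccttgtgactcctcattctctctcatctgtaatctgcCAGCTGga
Grik2 intron: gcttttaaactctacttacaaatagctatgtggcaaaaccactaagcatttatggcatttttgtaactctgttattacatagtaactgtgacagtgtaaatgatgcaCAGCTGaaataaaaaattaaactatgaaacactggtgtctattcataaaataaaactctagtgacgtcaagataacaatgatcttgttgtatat
Nearest start Spag17: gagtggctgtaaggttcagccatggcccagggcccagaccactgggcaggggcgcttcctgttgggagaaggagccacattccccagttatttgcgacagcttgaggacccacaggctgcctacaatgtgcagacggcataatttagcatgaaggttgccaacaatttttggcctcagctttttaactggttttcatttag
Matches to the AP-1 letters were present in 4 of the 10 windows, of which those near *Gm10801*, *Cdh19* and *Cdh10* are shown. Over the whole set the AP-1 letters were rarer than in consensus regions (12.7% against 18.4%). The *Epha4* window held matches for SOX, RUNX, bHLH and homeobox letters, and the *Spag17* window held none of the 12.

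Regions open in B10 alone were 5.05% of all consensus regions. The same rule gave 1495 regions for G7 alone (1.57%) and 4154 for WT alone (4.37%). The number followed from the libraries used. Without B10 replicate 1 it was 2750, and without B10 replicate 2 it was 2550, since both remaining B10 libraries then had to hold the peak. With equal numbers of peaks taken from every library, 3248 regions were open in B10 alone. In bulk libraries, more cells with a region open and a more open region in each cell cannot be told apart.

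The members were weaker than the peaks that every library shares. B10 replicate 1 held a peak in 3981 of the 4802 members, replicate 2 in 4183 and replicate 3 in 3364. In all, 1924 members (40.1%) had a peak in all 3 B10 libraries. The strength of a peak was expressed as its rank, the percentile of its −log10 q-value within its own library, where 100 is the strongest. The median rank of members was 26.4 in replicate 1, 20.01 in replicate 2 and 17.5 in replicate 3, against 71.6, 72.1 and 70.1 for the 46449 regions with a peak in all 9 libraries. Most members were thus in the lower part of each list, and their median width was 377 bp against 885 bp for the regions shared by all libraries. The width was not particular to B10, with 371 bp for G7 alone and 389 bp for WT alone. Widths are those of merged peaks, so regions merged from more libraries can be wider.

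The edge of the rule was not sharp. Another 3698 regions had a peak in at least 2 B10 libraries and in exactly 1 of the 6 other libraries, and their median best B10 rank of 30.8 was close to the 28.4 of the members. The one other library was G7 replicate 1 in 1371 of them and WT replicate 1 in 795, more than for any other library. A further 12463 regions had a peak in 1 B10 library and in no other, with a median rank of 8.90.

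As a measure that the choice did not use, regions were chosen with 2 libraries of a line and looked up in the third. Of 2745 regions chosen with B10 replicates 2 and 3, 70.1% had a peak in replicate 1 (95% Wilson interval 68.4 to 71.8). The share was 75.7% in replicate 2 and 57.2% in replicate 3. For G7 the shares were 45.1%, 58.9% and 56.4%, and for WT 49.6%, 76.3% and 73.8%. B10 and WT thus overlapped in this measure, and the lowest value of B10 lay within the range of G7. Intervals given for shares of regions cover counting error only, and neighbouring regions are not independent.

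Regions open in B10 alone often lay side by side. A run was defined as at least 3 successive consensus regions along a chromosome that were all open in that line alone. B10 had 221 runs with 1169 of its 4802 regions (24.3%, interval 23.2 to 25.6). WT had 142 runs with 551 of 4154 regions (13.3%), and G7 had 5 runs with 21 of 1495 regions (1.405%). The longest run held 26 regions in B10, 11 in WT and 6 in G7, and 20 runs of B10 had at least 10 regions against 1 of WT and 0 of G7. A larger set makes longer runs more likely, and the WT set, of a similar size to the B10 set, is the nearer comparison. The remaining B10 regions stood singly (3101) or in pairs (532).

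**Figure D1:**
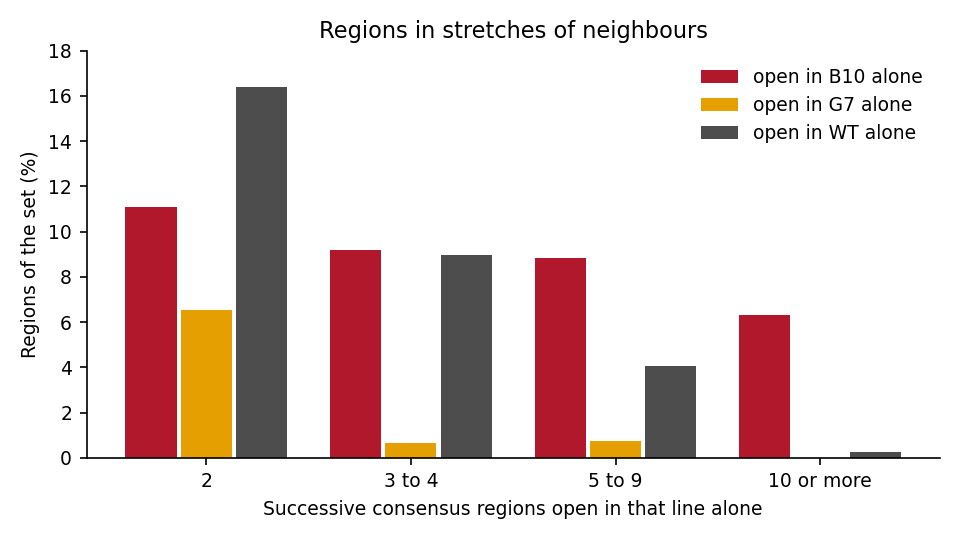
Bars give the percentage of the regions open in B10, G7 or WT alone (y axis) that lay in stretches of 2, 3 to 4, 5 to 9, or 10 or more successive consensus regions of the same set (x axis), with single regions left out. Stretches of 10 or more held 6.31% of the B10 regions, 0.265% of the WT regions and 0% of the G7 regions.

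Runs were long and held few genes. Their median span was 158 kb, 22 of them spanned 1 Mb or more, and together they covered 79.7 Mb. The median gap between neighbours within a run was 32.7 kb. No start of a protein-coding gene lay within 173 of the 221 runs, and 120 overlapped no protein-coding gene at all. Members in runs were also seen more often in all 3 B10 libraries (59.7%) than members outside runs (33.7%), and their median best rank was 37.7 against 25.9. The consensus region next to a run, on either side, had a peak in all 9 libraries in 17.9% of 441 cases, against 48.8% of all consensus regions. It had a peak in at least 2 B10 libraries in 89.8% of cases, against 82.6% of all consensus regions.

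A run of 26 members spanned 2143 kb of chromosome 19, at chr19:50258944-52402329 (mm10), over *Sorcs1*, a sorting receptor of the nervous system, and *Ins1*, an insulin gene. The B10 libraries held 36, 28 and 28 peaks there. Next came a run of 21 members in 411 kb from beyond *Tbx15*, a T-box factor of mesenchymal development, into *Spag17*, with 24, 23 and 17 B10 peaks. A run of 21 members around *Brinp3*, a neural gene, was the longest in distance with 3209 kb and held 22, 24 and 23 B10 peaks. The G7 and WT libraries held 0 peaks within the span of each of these 3 runs. The definition of a run nearly fixes this, since every consensus region in it lacks G7 and WT peaks and only a region outside the consensus could hold one.

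In a further 6 of the 10 runs with most members, the members numbered 13 to 19. These runs lay around *Ptchd4*, a gene of the patched-domain family (19 members), *Dpp10*, a partner of voltage-gated potassium channels (17), *Epha4* (15) and *Cdh10* (13). Another run, with 17 members in 2449 kb of chromosome 8 between *Aga* and *Tenm3*, overlapped no protein-coding gene. The run on chromosome 10 at chr10:103715129-105165772 (14 members) overlapped 7 gene models that are known by Gm numbers, and whether these are near-identical copies that share reads was not examined.

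The gene density around the members differed from that around other open regions. The genome was cut into 2473 tiles of 1 Mb, and a tile was called gene-poor when it held at most 2 starts of protein-coding genes, which was so for 825 tiles (33.4%). Gene-poor tiles held 1663 of the 4802 members (34.6%, interval 33.3 to 35.99), against 13.1% of all consensus regions, 13.2% of the regions open in G7 alone and 13.6% of those open in WT alone. Of members in runs, 70.1% lay in gene-poor tiles, and of members outside runs, 23.2%. The share of consensus regions that were open in B10 alone fell from 21.7% in tiles with 0 starts to 11.1% with 1 to 2, 5.84% with 3 to 5, 4.24% with 6 to 10, 3.05% with 11 to 20 and 2.24% with 21 or more. The same shares for G7 alone lay between 1.43% and 1.74% and those for WT alone between 4.03% and 4.75%, with no such decline. These shares are descriptions and were not tested.

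**Figure D2:**
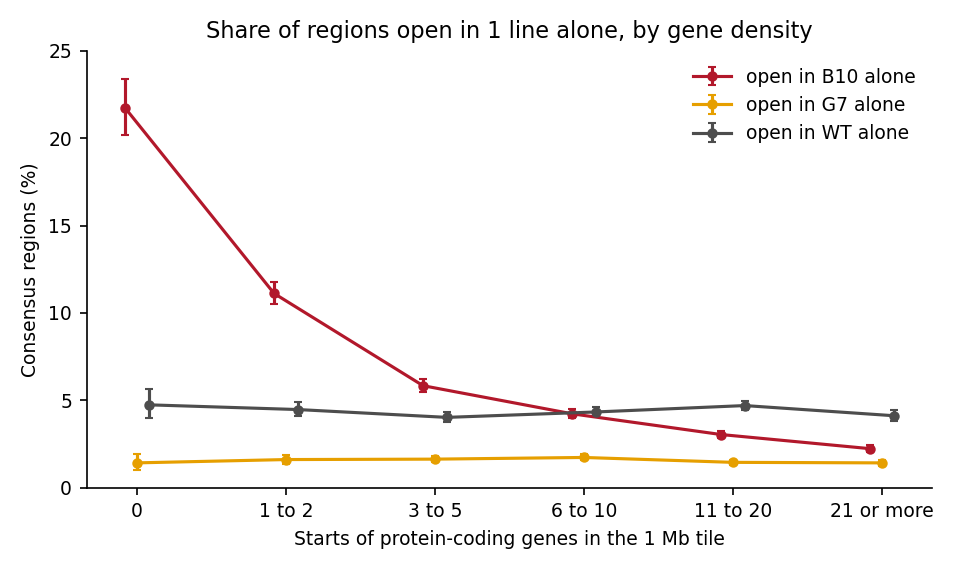
Points give the percentage of consensus regions open in B10, G7 or WT alone (y axis) in 1 Mb tiles grouped by the number of protein-coding gene starts (x axis), with 95% Wilson intervals as bars. The B10 line falls from 21.7% to 2.24%, and the other 2 lines stay level.

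Distances to genes come from the same annotation of the same regions, so they describe this pattern again and are no separate evidence. The median distance from a member to the nearest start of a protein-coding transcript was 59.2 kb, against 20.9 kb for all consensus regions, and it was 209.8 kb for members in runs. More than 100 kb from any start lay 39.6% of members and 16.9% of consensus regions, and more than 500 kb lay 9.93% and 2.04%. Promoters, within 1 kb of a start, made up 2.79% of members (134 regions), 14.2% of consensus regions, 9.63% of the G7 set and 6.19% of the WT set. Intergenic regions made up 55.6% of members and 43.3% of consensus regions, and introns 37.0% and 35.0%. Where a member did lie in a protein-coding gene, the gene was long, with a median length of 162 kb against 88.1 kb for consensus regions and 466 kb for members in runs.

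Members were spread over 1624 of the 2473 tiles, and a part of them lay in tiles rich in members. Tiles with 10 or more members numbered 49 and held 681 members (14.2%), and 33 of the 49 were gene-poor. In them, 47.4% of 1436 consensus regions were open in B10 alone, while 0.348% were open in G7 alone and 1.88% in WT alone. The B10 libraries held 1583, 1419 and 1316 peaks in these tiles, the G7 libraries 536, 539 and 521, and the WT libraries 528, 549 and 531. The tiles were chosen for their members, so the size of this gap is a description. G7 and WT libraries overlapped in it.

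The tile with most members, 26 of 31 consensus regions, was chromosome 5 from 18 to 19 Mb, with *Gnai1*, a subunit of an inhibitory G protein, and *Gnat3*, the gustducin of taste cells. The B10 libraries held 28, 30 and 30 peaks there, the G7 libraries 1, 4 and 1, and the WT libraries 3, 4 and 3. The *Cdh10* tile held 24 members of 29 consensus regions, with 34, 33 and 26 peaks in B10, 2, 5 and 4 in G7, and 2, 4 and 3 in WT. Both tiles were nearly bare in the lines without members.

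Not every rich tile was bare in the other lines. On chromosome 6, the tile from 56 to 57 Mb, with *Pde1c*, a calmodulin-dependent phosphodiesterase, and 9 other gene starts, held 65, 58 and 52 peaks in B10, 24, 27 and 24 in G7, and 20, 22 and 22 in WT. The tile with *Oxtr*, the oxytocin receptor, and *Cav3*, the caveolin of muscle, held 81, 77 and 69 peaks in B10, 55, 51 and 52 in G7, and 51, 50 and 50 in WT. Its members were 17 of 80 consensus regions, and 3 of the 17 had a peak in all 3 B10 libraries. Regions with a peak in all 9 libraries were 13 of 53 consensus regions in the *Pde1c* tile and 31 of 80 in the *Oxtr* tile. In the *Pde1c* tile members also lay side by side, in runs of up to 8.

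**Figure D3:**
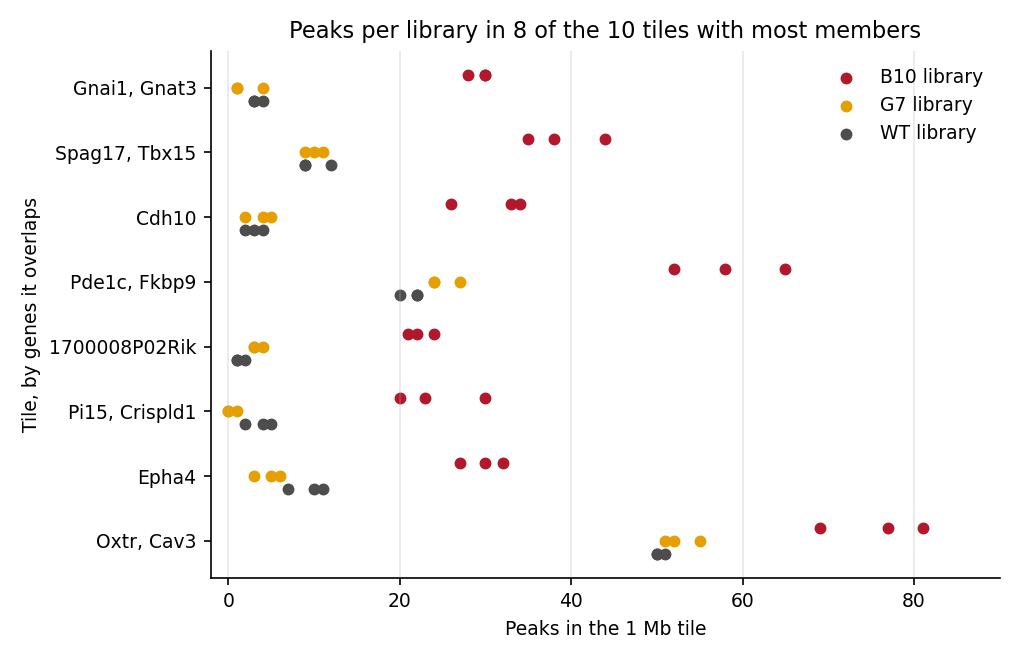
Each point is the number of peaks of 1 library (x axis) in 8 of the 10 tiles of 1 Mb with most members (y axis, named by genes they overlap), coloured by line. B10 libraries lie above all G7 and WT libraries in each tile, as the choice of tiles by members favours, from 28 to 30 peaks against 1 to 4 at *Gnai1* and *Gnat3* to 69 to 81 against 50 to 55 at *Oxtr* and *Cav3*.

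By chromosome, members were 8.58% of the consensus regions of chromosome 17, 7.43% of chromosome 6, 6.97% of chromosome 13 and 6.79% of chromosome 1. They were fewest on chromosome 11 (2.71%) and chromosome 12 (3.01%). Chromosomes 13 and 17 differed in layout. On chromosome 17, 154 of 376 members lay in runs, and on chromosome 13, 24 of 314.

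Assigned to the nearest start, the members belonged to 2567 protein-coding genes, of which 49 had at least 10 members and 728 members in all. *Cdh10* had 36 of its 44 consensus regions among them and *Cdh11*, a cadherin of mesenchymal and bone-forming cells, 27 of 46. *Dpp10* had 20 of 27, *Lrrc4c*, a netrin-G ligand of synapses, 20 of 29, and *Efna5*, a ligand of ephrin receptors, 20 of 93. *Pde1c* had 19 of 27, *Spag17* 18 of 20, *Tmtc2* 18 of 20, *Ptchd4* 17 of 17, *1700008P02Rik* 17 of 21 and *Epha4* 17 of 22. None of these 11 genes had a region open in WT alone, and *Efna5* had the single one open in G7 alone. Without B10 replicate 1, and likewise without B10 replicate 2, *Cdh11* had 17 members and *Dpp10* 13.

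The promoters of these genes took different states. The *Ptchd4* promoter was itself a member, as was a promoter region of *Pde1c*. At the latter, chr6:56361727-56362521, the rank was 35.9, 25.8 and 43.4 in the 3 B10 libraries. By contrast, the promoters of *Cdh10*, *Lrrc4c* and *Efna5* held a peak in all 9 libraries, and those of *Dpp10*, *Spag17* and *1700008P02Rik* in none. The *Cdh11* promoter held a peak of rank 73.8, 65.6 and 69.7 in B10 and of rank 18.2 in WT replicate 3, with no peak in the other 5 libraries, so it missed the rule by that 1 library. The *Tmtc2* promoter held a peak in all 3 B10 libraries and in G7 replicates 2 and 3, and the *Epha4* promoter in 8 libraries, all but G7 replicate 3.

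At promoters, 134 members lay within 1 kb of a start of 136 genes, and 64 of them had a peak in all 3 B10 libraries. The strongest was *Ptchd4*, at chr17:42315663-42316510, with ranks of 91.5, 92.2 and 92.4 and −log10 q-values of 209, 237 and 221. It was also the member with the highest lowest rank anywhere in the genome. *Zcchc3*, a cofactor of nucleic acid sensing, followed with ranks of 75.6, 75.7 and 75.8, and *Rsph3b*, a gene of the ciliary radial spoke, with 74.3, 79.3 and 76.9. These 3 promoters had ranks like those of peaks that all libraries share.

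The promoters of *Zcchc3* and *Sox12*, a SoxC transcription factor, lie 15.2 kb apart on chromosome 2, and both were members. The *Sox12* region, chr2:152396126-152399135, had ranks of 69.2, 72.1 and 64.3. The consensus region between them, looked at after these values were seen, was called in each of the 9 libraries, and its ranks were 83.6, 81.8 and 82.0 in B10, 75.2, 72.8 and 71.1 in G7 and 90.3, 90.9 and 89.6 in WT. The pair thus flanked a region that was open in every library and strongest in WT.

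*Cdh19* had promoter ranks of 79.5, 74.5 and 72.0, and *Aim2*, a sensor of DNA in the cytosol, 80.1, 76.7 and 68.2. *Cd36*, a fatty acid transporter of adipocytes and macrophages, had a member at one of its starts, chr5:17849689-17849917, with ranks of 70.2, 61.7 and 65.3. A peak within 1 kb of some start of *Cd36* was present in G7 replicate 3 as well, outside this region. *Mtus1*, a microtubule-associated gene, had ranks of 73.7, 62.0 and 57.4, and *Fahd2a* 61.8, 62.8 and 56.4. The shared promoter region of *Sgce* and *Peg10*, imprinted genes expressed from the paternal allele, had 60.3, 55.1 and 54.5. The last of the 12 strongest promoters were those of *Esp34*, a secreted peptide of exocrine glands, and *Olfr761*, an odorant receptor, with lowest ranks of 53.0 and 51.6. Peaks in multigene families such as these are uncertain, as reads may come from a close copy.

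Away from promoters, the strongest members were close in rank to the strongest promoters. The region near *Gm10801* had ranks of 92.9, 91.6 and 87.1. A region 1432 kb from *Pcdh10*, a protocadherin of neurons, had 83.2, 87.0 and 83.7, and one 483 kb from *Acot10* had 80.8, 82.8 and 81.3. The *Grik2* intron had 89.0, 83.4 and 79.2, the *Epha4* intron 81.7, 78.5 and 77.6, and an intron of *Cacna1c*, a calcium channel, 83.1, 80.0 and 76.9. In all, 150 members had a rank of at least 50 in all 3 B10 libraries. The set was therefore mostly weak peaks with a small strong part.

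Genes of neural adhesion and of the synapse, a list of 60 genes, stood nearest to 956 consensus regions, of which 292 (30.5%) were open in B10 alone, against 5.05% of all consensus regions. Of the 60 genes, 43 had at least 1 member, and 201 of the 292 members lay in runs. The list had been drawn up with the leading genes of this set known, so its share is no independent evidence. Beside *Cdh10*, *Dpp10* and *Lrrc4c*, members were nearest to *Grik2* (17 of 22), *Lingo2* (14 of 22), *Cdh12* (13 of 24) and *Cdh7* (11 of 12). Other long genes of the list had few or none, such as *Cntnap2* (3 of 25), *Nrg1* (1 of 49), *Tenm4* (2 of 56), *Fgf14* (0 of 9) and *Pcdh7* (0 of 11). No promoter peak was found in any library for *Grik2*, *Lingo2* or *Cdh7*, so members near them were open without a called peak at the start of the gene. With presence asked of all 3 B10 libraries the share was 16.2%, and without B10 replicate 2 it was 22.05%.

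The gene lists for lineages that these progenitors can enter showed no such share. Among adipocyte genes 8 of 243 consensus regions were members (3.29%), among cartilage genes 27 of 469 (5.76%), among bone genes 9 of 137 (6.57%) and among muscle genes 11 of 116 (9.48%, interval 5.38 to 16.2). The muscle members lay mostly near *Mef2c*, a transcription factor of muscle and other lineages, with 7 of its 38 regions. In the adipocyte list, *Cd36* had 3 of 15, *Ebf1* 2 of 46, and the regulators *Pparg*, *Cebpa* and *Cebpb* 1 each. In the cartilage list, *Sox9* had 6 of 118 and *Sox6* 5 of 78, and in the bone list *Runx2* had 3 of 35. Mesenchymal identity genes had 15 of 333 (4.50%), and 6 of these lay near *Tbx15*, 3 in the run that reaches into *Spag17* and 3 in a run of their own at chr3:99379842-99403046. The *Tbx15* promoter held a peak in all 9 libraries. *Cdh11*, with 27 of 46 regions among the members, was in neither the bone list nor the mesenchymal list. The shares thus depend on which genes were listed.

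Gene families that are clustered in the genome had shares near or below the background of 5.05%. Odorant receptor genes had 16 of 260 regions (6.15%), vomeronasal receptor genes 6 of 115 (5.22%), zinc finger genes named Zfp 48 of 1393 (3.45%, interval 2.61 to 4.54) and keratin genes 1 of 102 (0.980%, interval 0.173 to 5.35).

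**Figure D4:**
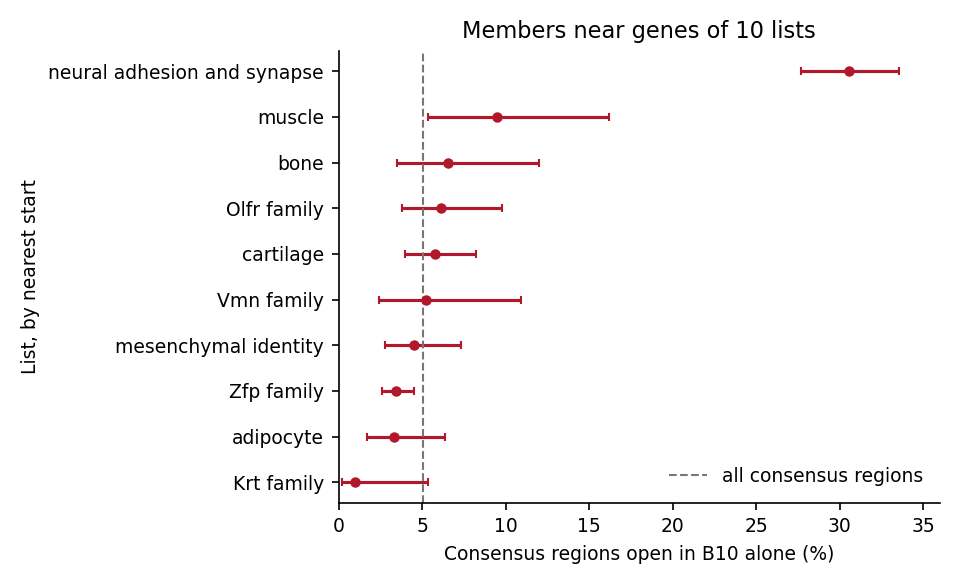
Points give the percentage of the consensus regions nearest to genes of a list (y axis) that were open in B10 alone (x axis), with 95% Wilson intervals, and the dashed line gives the 5.05% of all consensus regions. The neural adhesion and synapse list lies at 30.5%, the other 9 lists between 0.980% and 9.48%.

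The DNA at the summits was poorer in G and C than at other open regions. The median GC content of the 201 bases was 44.8% in members, 42.8% in members in runs, 49.3% in consensus regions and in the G7 set, and 49.8% in the WT set. The mean number of CpG dinucleotides was 1.72 in members and 4.25 in consensus regions. At least 1 base in 2 was masked as repeat in 6.46% of members, 6.43% of the WT set, 13.0% of the G7 set, 4.94% of consensus regions and 2.61% of regions open in all 9 libraries. The median masked share of a window was 9.95% in members, 9.45% in the WT set, 10.4% in the G7 set, 4.98% in consensus regions and 0% in regions open in all 9 libraries. Members were thus masked more than consensus regions and about as much as the WT set.

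Motif letters were searched as exact matches on both strands, with overlaps between motifs allowed. TGACTCA (AP-1) was found in 12.7% of members and 18.4% of consensus regions, and in 28.5% of the WT set. Within the members, it was found in 19.3% of those in runs and 10.6% of those outside runs. CCTTTGT (SOX) was found in 8.35% of members against 5.38% of consensus regions, CATTCCA (TEAD) in 7.04% against 5.63%, TGTGGTT (RUNX) in 10.7% against 8.85%, TTGCNNAA (CEBP) in 11.4% against 9.05%, and AAAAAAAA (an A tract) in 7.62% against 4.98%. The GC-rich letters were rarer. AGGNGGC (the CTCF core) was found in 9.29% of members against 19.4% of consensus regions and CCGGAAG (ETS) in 0.583% against 2.93%. In the G7 set, the share was 10.7% for RUNX, 5.02% for SOX, 4.88% for TEAD and 7.16% for CEBP. For the A tract it was 6.35%, for the CTCF core 19.7% and for ETS 1.74%. The AP-1 and RUNX shares of the G7 set were thus near those of members. TGTTTAC (FOX), TAATTA (homeobox), CAGCTG (bHLH) and the MEF2 motif were found in 2.98%, 2.77%, 12.7% and 3.44% of members, against 2.72%, 2.56%, 14.7% and 3.13%. The median GC content was lower in members (44.8%) than in consensus regions (49.3%), and its part in these shares was not tested. In the WT set it was 49.8%, close to consensus regions, while the AP-1 shares of the WT set and consensus regions differed. A match says nothing about binding.

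Regions open in all 9 libraries are no members, so the rule did not use their strength. The runs beside them, however, were placed by peaks present in B10 and absent from G7 and WT in the same libraries. This choice may favour a higher strength in B10 near runs, so the comparison of lines is not independent of it. There were 169 such regions within 100 kb of a run, and 88 of the 221 runs had at least 1. The other runs do not enter this comparison. Their mean rank was 68.2, 69.6 and 68.1 in the B10 libraries, 56.2, 57.0 and 56.9 in the G7 libraries, and 58.3, 57.9 and 57.4 in the WT libraries. Taken relative to the mean rank of all 46449 shared regions, the values were 0.189, 0.501 and 0.919 in B10, −9.97, −9.78 and −8.95 in G7, and −8.54, −8.32 and −8.23 in WT. Shared regions near runs were thus of average strength in B10 and weaker than average in the other lines, and no B10 library overlapped with a library of another line.

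The mean relative rank was 0.536 ± 0.366 in B10 (SD, n = 3), −9.56 ± 0.544 in G7 and −8.36 ± 0.161 in WT. B10 exceeded WT by 8.90 percentile points and G7 by 10.1 points, in an exact two-sided permutation test over libraries with p = 0.1 for each (0.1 after Benjamini-Hochberg adjustment over 3 comparisons). With 3 libraries against 3, 0.1 is the smallest p this test allows. G7 lay 1.20 points below WT (exact permutation p = 0.1), and this direction was not stable. The difference of G7 from WT was 0.240 without WT replicate 1, 0.675 with replicates 2 and 3, 0.535 with replicate 1 of each line, and 0.0382 within 500 kb of a run. The comparisons share their libraries, and with differences taken within replicate numbers the exact sign-flip permutation test gave p = 0.25 for each, its smallest value. Within 500 kb of a run, where 1083 shared regions lay, B10 exceeded WT by 4.98 and G7 by 4.95 points.

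**Figure D5:**
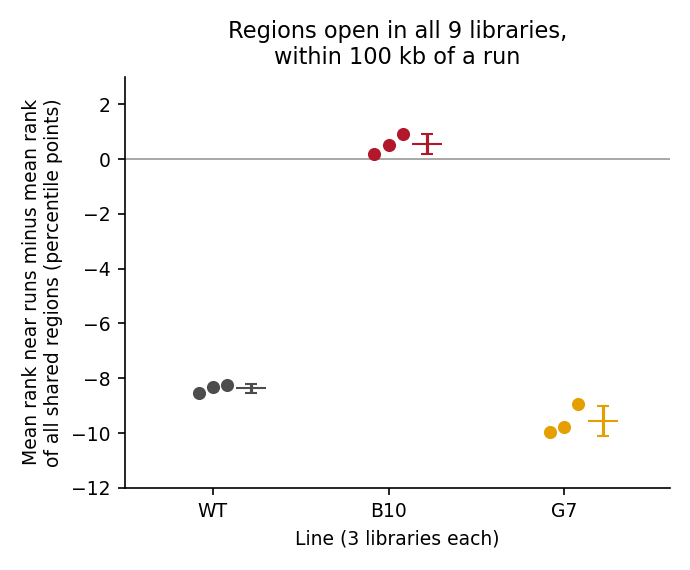
Points give, for each library, the mean rank of the 169 regions open in all 9 libraries within 100 kb of a run minus the mean rank of all such regions (y axis, percentile points), by line (x axis), with the mean and SD of 3 libraries beside them. The 3 B10 libraries lie between 0.189 and 0.919, all above the WT and G7 libraries, which lie between −9.97 and −8.23. The placing of runs by B10 peaks may favour the higher values of B10.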

How the data were processed

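ATAC-seq peak lists of 9 libraries were analysed, 3 each for WT, B10 and G7, placed in their line and numbered by their titles. Per the study's methods, the authors checked paired-end reads with Rfastp, aligned them to mm10 with Rsubread and called peaks with MACS2 in paired-end mode for each replicate. The MACS2 version is not given in the sources used here, and whether an input was used is unclear, since deposited peak names mention one and the ATAC-seq methods do not.

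For every peak the deposited lists hold a fold enrichment (the ratio of signal to background) and both a −log10 p-value and a −log10 q-value, all written by the peak caller. The display score in the deposited lists is MACS2's own rescaled value for each peak and was not used. The lowest −log10 q-value was 1.30 to 1.31 per list, so the authors kept peaks at a q-value of 0.05. No counts are held, so the count model of the study (DESeq2) could not be applied, depth is unknown and presence of peaks was compared.

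Peaks were merged, assigned to GENCODE M21 genes by the nearest start of a protein-coding transcript and read from the GRCm38 genome of RefSeq with Python 3.11.15, numpy 2.4.6 and pandas 2.3.3. A region was called promoter (1 kb), exon, intron or intergenic, in that order. The functions were tested on simulated peaks. Lines were compared with exact permutation tests over libraries, and p-values measure the spread between libraries, which may be technical. Shares of regions have 95% Wilson intervals.

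Libraries with the same replicate number deviated together from the means of their lines, with correlations over shared regions of 0.315 to 0.665 in the 9 pairs, so replicate numbers were also used as a block. The labels share these numbers and do not say what they stand for.

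The text names the 12 strongest promoters and 10 strongest members present in all 3 B10 libraries (by lowest rank), the 12 genes, 10 runs and 10 tiles with most members, and up to 4 genes per list, to which others were added with their values known. Results of 1 gene that these rules name are not reported here. The members, lists and rules were chosen with earlier results of these data known. Chromosomes X and Y were left out, since the rule covers chromosomes 1 to 19. Alternatives were stronger peaks, equal numbers of peaks, other merging, runs, tiles, windows and measures, and leaving out libraries.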

Additional observations from a re-analysis of the deposited data

Results flagged for a closer look

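In the relative rank of shared regions near runs, every B10 library lay above, and every G7 library below, all 3 WT libraries. The runs were placed by B10 peaks of the same libraries, so the place of B10 in this order is not independent of the rule. The difference between B10 and G7 was 10.1 percentile points (exact two-sided permutation test over 3 against 3 libraries, p = 0.1, the smallest it allows). The direction of G7 against WT was not stable. G7 exceeded WT by 0.240 points without WT replicate 1, by 0.675 with replicates 2 and 3, by 0.535 with replicate 1 of each line and by 0.0382 within 500 kb of a run.

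On chromosome X, which the rule for members leaves out, 131 of 2165 consensus regions (6.05%) were open in B10 alone, 64 (2.96%) in G7 alone and 92 (4.25%) in WT alone. The number in B10 was above that in the control line. It was not tested.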

How the results depend on the processing

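The peak lists give no depth, so weak members cannot be separated from peaks just under the threshold of the other lines. The number of regions open in B10 alone was 2852 with presence from peaks with a −log10 q-value of at least 5, 1924 with 3 of 3 libraries and 15029 from replicate 1 of every line. Leaving out 1 library moved it between 2550 and 6186.

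The percentage in runs under the same 3 settings was 23.1, 18.97 and 21.2, with equal numbers of peaks 26.9, with replicates 2 and 3 only 20.6, among all merged regions 13.8 and with runs of at least 2 it was 35.4. Without 1 library it was 21.3 to 28.1. The percentage in gene-poor tiles was 40.1, 43.0 and 25.1 under the 3 settings, 38.3 with equal numbers of peaks, 32.2 with replicates 2 and 3, 44.9 in tiles of 500 kb with at most 1 start and 24.5 in tiles of 2 Mb with at most 4 starts, where consensus regions stood at 19.4 and 7.69. Without 1 library it was 31.1 to 40.1. At promoters it was 3.33 with 3 of 3 libraries and 6.79 within 3 kb (19.1 for consensus regions).

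Shared regions near runs ranked higher in B10 than in WT and G7 under every alternative. The difference was 3.897 to 17.1 points where ranks were used, and 0.15 and 0.18 in log2 fold enrichment. Under each alternative the runs were placed by B10 peaks, so none is independent of the rule. With the replicate block the differences stay at 8.90, 10.1 and −1.20 by arithmetic. Its sign-flip test allows no p below 0.25, so this alternative could change no call. G7 minus WT turned to 0.240 without WT replicate 1, 0.675 with replicates 2 and 3, 0.535 with replicate 1 and 0.0382 within 500 kb. The cause was not tested. Without 1 library it ranged from −2.001 to 0.240.

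Counts near named genes and the share of the neural list were recomputed as well, which was decided after seeing the data. *Cdh10* had 23 to 46 members, *Cdh11* 14 to 39, *Dpp10* 10 to 24, *Epha4* 13 to 21 and *Ptchd4* 12 to 22, with the highest numbers from replicate 1 alone. The lowest, with 3 of 3 libraries, included 14 for *Cdh11* and 10 for *Dpp10*. These 2 genes had 17 and 13 without B10 replicate 1 or 2. The share of the list was 16.2 to 42.2%.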
